A study of Mus musculus with 6 samples.

Results

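The circular RNAs of Egfr and Fyn in the mouse ovary are described here. They were taken as every row of the circRNA expression table whose host gene is given as Egfr or Fyn, which gave 9 circles among the 27999 listed, 5 of Egfr and 4 of Fyn. Egfr is the host of the circle named in the title of the study. The samples were whole ovaries of the inbred mouse strain C57BL/6, from adults at 6 weeks (n = 3) and from neonates at postnatal day 5 (n = 3). All 6 libraries were made from total RNA digested with RNase R, an exonuclease that removes linear RNA and leaves circles, and the labels do not say whether a library came from 1 animal or from pooled ovaries. The deposited comparison is between groups lettered A and B, and no source used here ties either letter to an age. No statement about age is therefore made, and a log2 fold change above 0 means higher in A.

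Egfr encodes the epidermal growth factor receptor, a receptor tyrosine kinase with an extracellular ligand-binding part, a transmembrane helix and an intracellular kinase. In the ovary, EGF-like ligands made by granulosa cells in response to luteinizing hormone act through this receptor during ovulation. Fyn encodes a Src family tyrosine kinase, which is held at the inner face of the membrane and passes on signals from receptors and adhesion sites. A circRNA forms when the end of an exon is spliced to the start of the same or an earlier exon, and the sequence across that back-splice junction is what sets the circle apart from the mRNA of the same gene.

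The circle with the smallest p of the set is Egfr circRNA434, shown whole from the first base of exon 14 to the last base of exon 15. Its capitals mark a match to the seed (bases 2 to 8) of miR-125a-3p, a miRNA looked up because published work on the Egfr circle in granulosa cells links it with this miRNA and with Fyn. The files do not say which Egfr circle that work used. The mature miRNA follows with its seed in capitals (RefSeq, GRCm38.p6, chromosome 17). The last pair sets the match in circRNA434 beside the match in the 3′ UTR of Fyn mRNA in windows of 30 bases. Circle and mRNA sequences are from GENCODE M21 on GRCm38, plus strand, 5′ to 3′.
circRNA434: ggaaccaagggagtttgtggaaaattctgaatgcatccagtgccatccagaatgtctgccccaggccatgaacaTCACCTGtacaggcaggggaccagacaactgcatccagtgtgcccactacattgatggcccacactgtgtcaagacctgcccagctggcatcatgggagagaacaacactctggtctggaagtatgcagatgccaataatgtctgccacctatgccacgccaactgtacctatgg
miR-125a-3p: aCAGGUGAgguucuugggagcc
circRNA434 match: tctgccccaggccatgaacaTCACCTGtac
Fyn mRNA match: atgtgattttaactctgtctTCACCTGatt

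The back-splice junctions show which ends the circles share. Each is given as the last 20 bases of the closing exon in lower case, followed by the first 20 bases of the opening exon in capitals. The junction of Fyn circRNA14420 is not shown, since it opens in the 5′ UTR.
Egfr circRNA23775: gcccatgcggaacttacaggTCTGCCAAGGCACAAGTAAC
Egfr circRNA20636: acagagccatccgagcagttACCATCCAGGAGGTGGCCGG
Egfr circRNA22217: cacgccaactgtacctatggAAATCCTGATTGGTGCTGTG
Egfr circRNA434: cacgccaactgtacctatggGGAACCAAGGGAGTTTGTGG
Egfr circRNA4759: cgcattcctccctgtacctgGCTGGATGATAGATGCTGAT
Fyn circRNA20796: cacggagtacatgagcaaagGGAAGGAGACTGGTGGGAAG
Fyn circRNA5508: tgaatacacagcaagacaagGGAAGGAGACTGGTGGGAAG
Fyn circRNA5509: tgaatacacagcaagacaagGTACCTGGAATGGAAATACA

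Of the Egfr circles, on the plus strand of chromosome 11, 4 overlapped in a chain from exon 2 to exon 15, and circRNA4759 stood apart. The circle circRNA23775 (16858896 to 16860251) joined exons 2 and 3 of the gene in 336 nt, and circRNA20636 (16860068 to 16863080) joined exons 3 and 4 in 319 nt, so these circles shared exon 3 and no splice site of their junctions. Exons 4 to 15 made up circRNA22217 (16862946 to 16883613, 1456 nt), the longest of the 9. Its donor, at the end of exon 15, was also that of circRNA434 (16881464 to 16883613, 249 nt), the shortest of the 9, and the lower-case parts of these junctions are the same. Exons 14 and 15 measured 91 and 158 nt. The donor of exon 15 stands before the point where the Egfr isoforms part: exon 16 is a terminal exon of 783 nt in the 16-exon isoform that the authors' table names, and an internal exon of 45 nt in the 28-exon isoform. All exons of the first 4 circles belong to both isoforms, so they cannot be assigned to either. They encode the extracellular part of the receptor. The fifth, circRNA4759 (16908877 to 16910896, 417 nt), joined exons 24 to 27 of the 28-exon isoform, in the intracellular part. Exons 16 to 23 were in no listed circle. All 5 Egfr circles held coding sequence only.

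**Figure D1:**
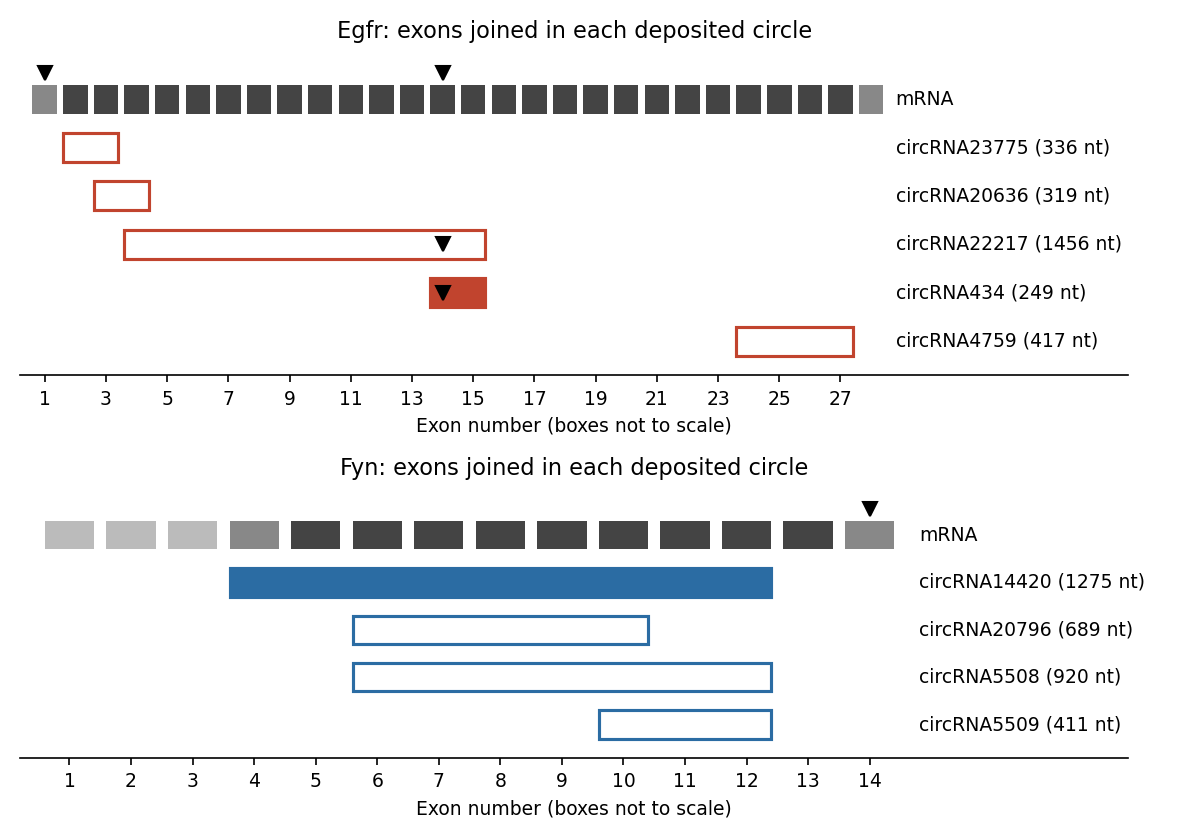
Exons joined in each listed circle of Egfr (28-exon isoform) and Fyn (14-exon isoform), by exon number. Dark boxes are coding exons, mid-grey boxes exons with coding sequence and UTR, light boxes UTR exons; filled bars are circles with values in 2 or more libraries, open bars circles with a value in a single library, and triangles matches to the seed of miR-125a-3p, which stand in circRNA434, circRNA22217 and the mRNAs of both genes and in none of the 4 Fyn circles.

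The Fyn circles overlapped one another too, on the plus strand of chromosome 10. The longest, circRNA14420 (39511739 to 39533962), joined exons 4 to 12 of the 14-exon isoform in 1275 nt. It holds the annotated start codon, with 11 nt of 5′ UTR before it. Exons 6 to 12 formed circRNA5508 (39522754 to 39533962, 920 nt), exons 6 to 10 formed circRNA20796 (39522754 to 39532195, 689 nt) and exons 10 to 12 formed circRNA5509 (39532016 to 39533962, 411 nt). Exon 10 was thus part of all 4 circles. The donor of exon 12 closed 3 of them, and the acceptor of exon 6 opened both circRNA5508 and circRNA20796, as the shared parts of their junctions show. No other circle of the catalogue used these sites. Exon 9 (39529919 to 39530074, 156 nt) is replaced in another annotated Fyn isoform by an exon of 165 nt (39529437 to 39529601), and the 3 circles that span it were placed on the isoform that the authors' table names. The table does not show which of the alternative exons they hold. No Fyn circle held exon 13 or the terminal exon 14, which ends the coding sequence and carries the 3′ UTR.

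Numbers of circles were moderate for both hosts. At least 5 circles, as for Egfr, were listed for 26.2% of the 7411 host genes, and at least 4, as for Fyn, for 34.1%. By exonic length the members spread over most of the range of the catalogue, whose median was 469 nt over the 25828 exonic circles placed on their named isoform: 8.77% of circles were shorter than circRNA434, and 96.4% were shorter than circRNA22217. Base composition was ordinary. The G and C content ran from 47.7% in circRNA5509 to 52.6% in circRNA434, within the quartiles of all placed circles (45.7% and 53.5%).

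The reading frame carried on round the junction in 5 of the 9 circles. Lengths that are a multiple of 3 were those of circRNA23775 (112 codons), circRNA434 (83 codons), circRNA4759 (139 codons), circRNA14420 (425 codons) and circRNA5509 (137 codons). In all 5, the annotated frame followed once round the circle met no stop codon. An ATG in that frame occurred 2 times in circRNA434 and 8 times in circRNA14420, the annotated Fyn start codon among them. The other 4 circles shift the frame at the junction and meet stop codons when read on. Of the 21587 placed circles with coding sequence only, 39.5% had a length that is a multiple of 3 (exact 95% interval 38.8 to 40.1, counting error only), so such lengths are common. Fyn circRNA14420 holds some 5′ UTR and is not among those circles. Translation was not measured.

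The mean of both flanking introns lay below the catalogue's median for 4 of 5 Egfr circles and above it for 3 of 4 Fyn circles. Long flanking introns are a known feature of exons that form circles. Beside circRNA434 the introns measured 3204 nt upstream and 3527 nt downstream, and 35.1% of the 25800 placed circles with introns on both sides had a shorter mean of the pair, whose median over those circles was 5624 nt. The introns of circRNA4759 were the shortest of the set by this mean, at 1994 and 597 nt (11.4% of circles shorter). At the other end, circRNA23775 followed the first intron of Egfr, which spans 106325 nt, and preceded one of 2694 nt (95.9%). Fyn circRNA14420 lay between long introns on both sides, 56603 nt upstream and 17424 nt downstream (92.3%). The same downstream intron bordered circRNA5508 and circRNA5509, with 7084 and 1941 nt on their upstream sides. For circRNA20796 the introns were 7084 and 1438 nt (42.1%). By the shorter intron of each pair instead of the mean, the share of circles with a shorter one was 49.2% for circRNA23775 (95.9% by the mean) and 38.4% for circRNA5509 (64.9%), each of which has 1 long intron. It was 54.6% for circRNA434.

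**Figure D2:**
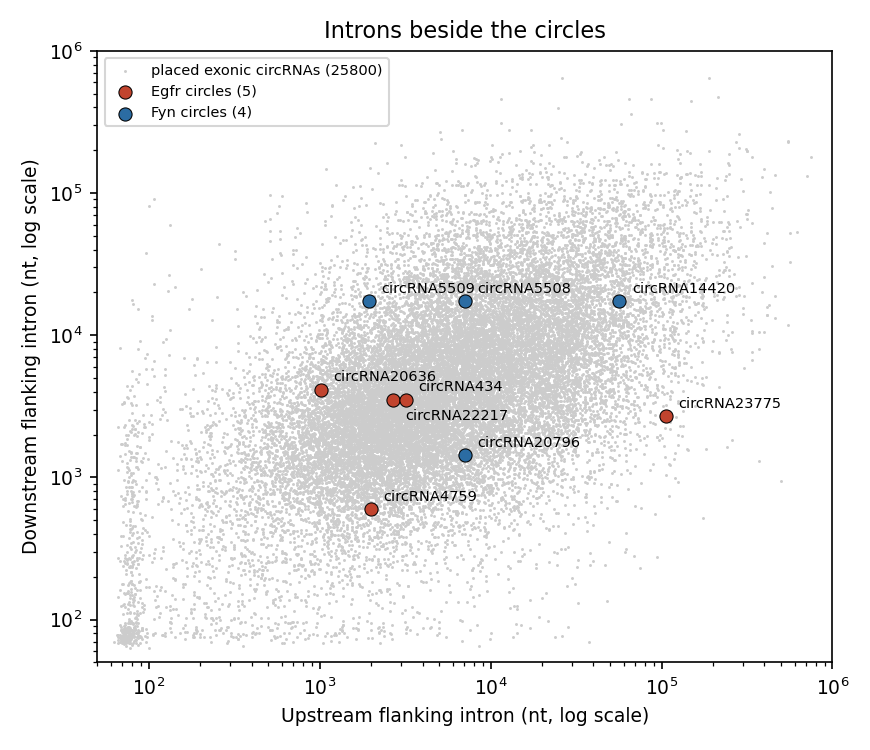
Upstream intron (x axis) against downstream intron (y axis) of each placed exonic circle, in nt on log scales, with Egfr circles in red and Fyn circles in blue. Fyn circRNA14420 stands where both introns are long, circRNA23775 where only the upstream intron is, and circRNA434 in the lower middle of the cloud.

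A match to the seed of miR-125a-3p was present in circRNA434 and circRNA22217 and in no other member. The letters searched were TCACCTG, on the sense strand and across the junction. In circRNA434 the match covers bases 75 to 81 of the circle, in exon 14 (chromosome 11, 16881538 to 16881544), and the match in circRNA22217 is the same stretch of that exon, so these are 1 site. Neither match is followed by an A. The same letters were found in 6.32% of the 25828 placed circles (exact 95% interval 6.03 to 6.63, counting error only). Among the 2180 circles within 10% of the length of circRNA434 the share was 3.03%, and among the 617 near the length of circRNA22217 it was 13.6%. No Fyn circle held the letters. They occurred once in linear Fyn mRNA, in the 3′ UTR of exon 14, 357 nt after the stop codon (chromosome 10, 39564329 to 39564335), where they are followed by an A, a context known to favour miRNA binding. Exon 14 lies outside every listed Fyn circle, so the Fyn site belongs to the mRNA, whereas the coding site of Egfr is shared by its mRNA and 2 circles. Linear Egfr mRNA had a further match in the 5′ UTR. A match of letters is not a measure of binding, and no miRNA was measured in the files used here.

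Other miRNA seeds give a scale for this. The RefSeq table held 1679 mature mouse miRNAs with 1398 distinct seeds, and miR-125a-3p shared its seed with none of the others. Matches to 40 distinct seeds were found in circRNA434, against a median of 30 in circles of like length (quartiles 26 and 35). For circRNA22217 the number was 181, against a median of 163 (quartiles 150 and 178). The other Egfr circles matched 46 seeds in circRNA23775 (median 40), 37 in circRNA20636 (median 38) and 43 in circRNA4759 (median 49). The last 2 lay below the medians of their lengths. So did all 4 Fyn circles, with 137 seeds in circRNA14420 (median 142), 71 in circRNA20796 (median 79), 88 in circRNA5508 (median 104) and 40 in circRNA5509 (median 48). The 3 shorter Fyn circles stood at or under the lower quartile, and circRNA14420 stood between the quartiles. Circles that share exons share seed matches, so the counts of the Fyn circles are not independent of one another. The same is true of circRNA434 and circRNA22217.

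**Figure D3:**
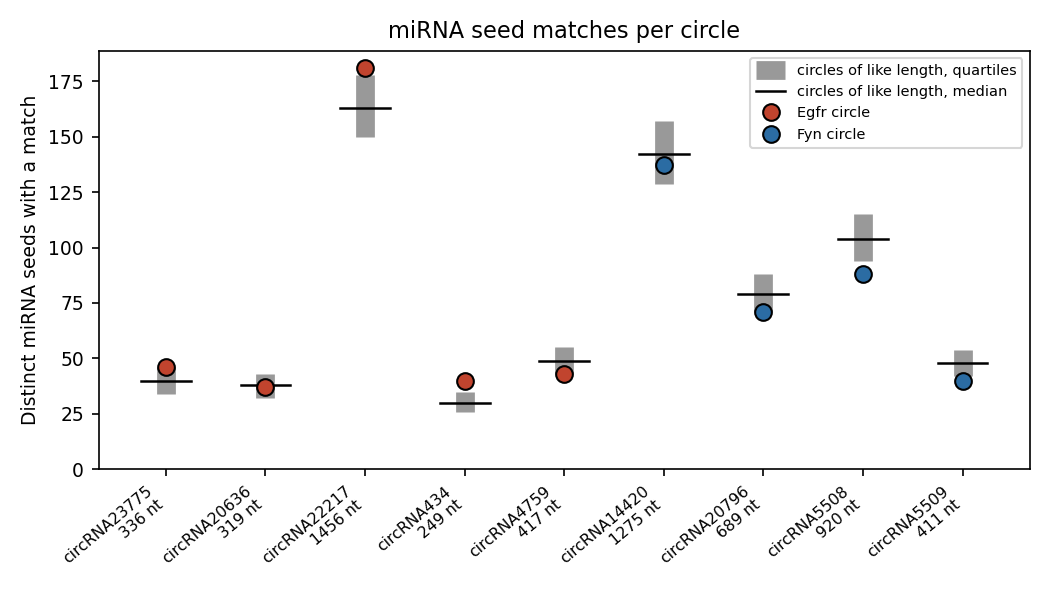
Number of distinct miRNA seeds (y axis) with a match in each Egfr circle (red) and Fyn circle (blue); grey bars are the quartiles and black lines the medians of circles within 10% of the same exonic length. The number for circRNA434, 40, stands above the bar of its length, and those of circRNA5508 and circRNA5509, 88 and 40, stand below theirs.

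Between the groups, the Egfr circle of exons 14 and 15 had the smallest p of the 9, and no Fyn circle came near the threshold. The authors' deposited table put Egfr circRNA434 at -0.72 on the log2 scale, which is 1.65-fold higher in B (p = 0.00653, adjusted p = 0.522; the test is not named). Fyn circRNA14420 stood at 0.57 on the same scale per the authors' deposited table, 1.49-fold higher in A, with p = 0.801 and adjusted p = 0.866. These were the only members with values in both groups. The values per library behind these folds could not be tied to samples and were not used, so their spread is given only through the authors' p. At its fold, the p of circRNA14420 is that which an unequal-variance test gives when a single library of each group holds a value. The fold of circRNA14420 is therefore read as a ratio of single values. In whole ovaries, a lower level cannot be told apart from fewer cells of the type that makes the circle.

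The other 7 circles had a value in a single library, read from a p of 0.423 per the authors' deposited table, which an unequal-variance test gives whenever 1 library of 6 holds a value. That share, 7 of 9, compares with 62.0% of all 27999 circRNAs. Per the authors' deposited table the Egfr circles circRNA23775, circRNA20636 and circRNA22217 and Fyn circRNA20796 had a value in B only. Egfr circRNA4759 and Fyn circRNA5508 and circRNA5509 had a value in A only per the authors' deposited table. With 1 value there is no test of a difference between groups, and since depth per library is unknown, a circle with no value elsewhere may have been there below detection. Circles that share the exon 15 donor of Egfr thus differed in how often they were detected, circRNA434 in both groups and circRNA22217 in a single library. At the exon 12 donor of Fyn, circRNA14420 had, by its p, a value in a single library of each group. There circRNA5508 and circRNA5509 had a value in a single library each, so little sets these Fyn circles apart in detection.

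None of the 9 circles carried the authors' mark of a difference, which requires p under 0.05 and at least a doubling or halving on the mean FPKM scale (1 log2 unit), against 1.75% of all circRNAs. By p alone, 1 of 9 members passed 0.05, against 1.95% of all. The 7 members with a value in a single library could not pass, as for 62.0% of all circRNAs. Members were also chosen with earlier results known, so these shares can neither show an excess nor exclude one. The circle that passed, circRNA434, was 1 of 56 per the authors' deposited table with p under 0.05 and a fold too small for the mark, of which 12 were higher in B. A smaller p was deposited for 107 circRNAs, 1.01% of the 10644 with values in 2 or more libraries. The smallest adjusted p of any circRNA per the authors' deposited table was 0.425, and neither Egfr nor Fyn is set apart by it. Circles with values in both groups were higher in A in 67.3% of 8107 cases, with a median log2 fold change of 0.42 per the authors' deposited table. Fyn circRNA14420, at 0.57, lay near this median, and Egfr circRNA434, at -0.72, lay on the other side of 0.

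**Figure D4:**
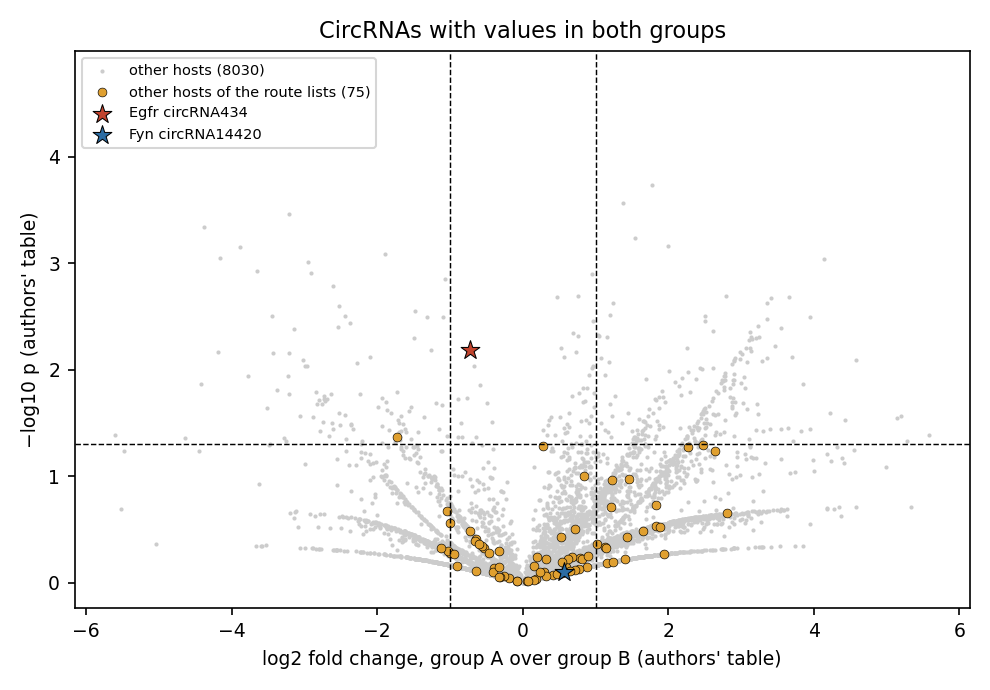
Log2 fold change of group A over group B (x axis) against −log10 p (y axis), both from the authors' deposited table, for circRNAs with values in both groups. Stars are Egfr circRNA434 (log2 fold change -0.72) and Fyn circRNA14420 (0.57), orange points other hosts of the signalling lists, and dashed lines the limits of the authors' mark; circRNA434 lies above the p limit and inside the fold limits.

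The relatives of both genes gave circles as well, and none of them was marked, against 1.75% of all circRNAs. These circles are too few for that to set them apart. Among ErbB receptors, the family of Egfr, 3 of 4 genes hosted 15 circles, 5 of them of Egfr itself, and Erbb3 hosted none. Erbb2 had an intronic circle, ciRNA95, in A only (p = 0.194, adjusted p = 0.522 per the authors' deposited table). The authors' deposited table placed Erbb2 circRNA5206 (exons 11 and 12) at 2.80 on the log2 scale (p = 0.225, adjusted p = 0.522) and Erbb2 circRNA14159 (exons 2 to 4) at -0.08 (p = 0.959, adjusted p = 0.974). Erbb4, a receptor for neuregulins, had circRNA11595 and circRNA11596 in A only per the authors' deposited table (p = 0.23 and 0.249, adjusted p = 0.522 for each). In the Src family, Yes1 circRNA9080 stood at 0.54 (p = 0.639, adjusted p = 0.734) and Lyn circRNA9631 at 1.65 (p = 0.326, adjusted p = 0.522) per the authors' deposited table, and a further Yes1 circle, circRNA9081, had values in A only (p = 0.184, adjusted p = 0.522). Src itself hosted 1 circle, with a value in a single library. Ptpra encodes a phosphatase that activates Src kinases, and its circRNA11207 had the smallest p of that list, in A only per the authors' deposited table (p = 0.184, adjusted p = 0.522). Ptpra circles with values in both groups lay on both sides per the authors' deposited table, circRNA11203 at 1.40, circRNA2906 at -0.32 and circRNA11201 at -0.19.

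Along the rest of the route, few ligand genes hosted circles and the inhibitors held the only marked circle. Of 11 ErbB ligand genes 3 hosted 4 circles, and the only one with values in 2 or more libraries was Tgfa circRNA8696, at a log2 fold change of -0.32 (p = 0.885, adjusted p = 0.924) per the authors' deposited table. Adaptors and effectors next to the receptor gave 114 circles from 21 of 23 genes, none of them marked. The smallest p there was that of Sos2, an exchange factor that activates RAS, with circRNA310 at 0.27 (p = 0.0517, adjusted p = 0.522) per the authors' deposited table. Genes of receptor degradation and inhibition gave 48 circles, 1 of them marked (2.08%), near the 1.75% of all circRNAs. Cblb encodes a ubiquitin ligase that marks activated receptors for breakdown. Its circRNA6488 stood at -1.72, marked as higher in B per the authors' deposited table (p = 0.0426, adjusted p = 0.522). The RAS-ERK core gave 30 circles and no mark, with Braf circRNA8599 in A only per the authors' deposited table (p = 0.203, adjusted p = 0.522). Over all 71 genes of the 6 lists, 47 hosted 237 circles, with 0 marked as higher in A and 1 as higher in B, against 1.23% and 0.521% of all circRNAs. Values in 2 or more libraries were held by 99 circles in these lists, of which 68 (68.7%) lay toward A, against 70.1% over the catalogue, and the median log2 fold change with values in both groups was 0.32, against 0.42.

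The pathway names per the authors' deposited table place both genes together in 2 of the 19 KEGG pathways of Egfr and 2 of the 8 of Fyn, namely Focal adhesion and Adherens junction. ErbB signaling pathway is listed for Egfr and not for Fyn. These 3 pathways were taken up after values had been seen. ErbB signaling pathway held 229 circles of 54 hosts, with 3 marked as higher in A, none of them of a gene in the 6 lists, and 1, the Cblb circle, as higher in B (1.75% in all). Focal adhesion held 582 circles of 120 hosts, with 8 marked as higher in A and 1 as higher in B (1.55% in all). Adherens junction held 272 circles of 52 hosts, with 9 marked as higher in A and 1 as higher in B (3.68% in all). Over all circRNAs 1.23% were marked as higher in A and 0.521% as higher in B, 1.75% in all. The 1 toward B was, for Focal adhesion and for Adherens junction, circRNA21033 of Vcl, which encodes the junction protein vinculin, with values in B only per the authors' deposited table (p = 0.0231, adjusted p = 0.522).

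Circles of cell type markers are set beside these values, on lists chosen with earlier results of these data known. Counts over these lists are therefore a description and no test. Where 2 or more libraries held a value, 70.1% of the whole catalogue lay toward A. Of 16 granulosa cell marker genes 11 hosted circles, and of their 16 circles with values in 2 or more libraries 3 lay toward A and 13 toward B, the side of circRNA434. Esr2 hosted 7 of these 16 circles and Greb1 hosted 4, so few hosts stand behind most of the count. As higher in B, the authors' deposited table marked 3 of the 50 granulosa marker circles, against 0.521% of all circRNAs: the nuclear receptor gene Nr5a2 with circRNA11800 at -2.54 on the log2 scale (p = 0.00399) and Greb1 with circRNA255 at -2.66 (p = 0.0424) and circRNA4320 at -3.48 (p = 0.0498), adjusted p = 0.522 for each. The next counts of direction are again of circles with values in 2 or more libraries. Oocyte markers hosted 12 circles in 5 of 11 genes, with 7 of 7 higher in A, 4 of them of Kit. Theca, luteal and stroma markers hosted 33 circles in 7 of 8 genes, with 3 of 6 higher in A. Leukocyte markers hosted 5 circles in 2 of 7 genes, with 3 of 3 higher in A. No circle of these last 3 lists had p under 0.05 per the authors' deposited table. The granulosa markers Fshr, Foxl2, Inhba, Inhbb and Fst were those with no listed circle. The part of these cell types in the values of circRNA434 and circRNA14420 was not tested.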

How the data were processed

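CircRNAs were measured in RNase R-treated RNA of 6 ovary libraries. The submitters' processing notes name Bowtie 0.12.2 and GRCm38, with the circRNA caller and filters not stated. Per the file headers, the authors deposited 2 tables with the same rows (1 line of each is not used here) and gave each circRNA a log2 fold change (group A over group B, from mean FPKM), a p-value and an adjusted p-value from a test not named. The 26 columns of values per library and group mean carry letters that match no sample label and were not used, though the values of Egfr and Fyn in them had been seen. Depth is therefore unknown, and the edgeR test planned for counts was not run. A log2 fold change is infinite where 1 group is at 0. The p that marks a single library was matched within 1e-09.

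Circles were placed on their named isoform in GENCODE M21 (GRCm38) where both ends were exon ends, and spliced sequences were read from its transcripts. Seed matches were searched round the junction. Intervals are exact binomial. Python 3.11.15, pandas 2.3.3 and scipy 1.17.1 were used, and the motif search, placement and adjustment were tested on simulated data. All Egfr and Fyn circles are named. Of the signalling lists, each marked circle and the circle with the smallest p are named. The Erbb2, Erbb4, Yes1, Lyn, Tgfa, Vcl, other Ptpra and marker circles were named after their values were seen. Members and lists were chosen with earlier results of these data known.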

Additional observations from a re-analysis of the deposited data

How the results depend on the processing

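Adjustment of p only over circRNAs with values in 2 or more libraries gave 0.636 for Egfr circRNA434 and 0.995 for Fyn circRNA14420, so neither passed 0.05 under either adjustment. Of the signalling lists, 2 circRNAs were higher in B by p under 0.05 with no fold minimum (circRNA434 and the Cblb circle), and 0 were marked as higher in B with receptors, ligands and Src family kinases only. With values in both groups required the count stayed at 1, and 0 were higher in A under any of these. The share of placed circles with a match to miR-125a-3p was 22.6% for bases 2 to 7 and 1.10% for bases 2 to 8 followed by an A, and 6.30% without the junction. Taking the longer or the shorter flanking intron in place of the mean, 28.0% and 54.6% of circles had a shorter one than circRNA434. For circRNA14420 the shares were 92.3% and 92.1%. Of all alternatives, 18 moved a value and 11 did not. No paired analysis was possible because the columns per library match no sample label. For the same reason DESeq2 and its size factors, the fit with no filter on low counts and leaving out each replicate were not run. Which age is A or B limits every difference given.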
